A study of Mus musculus with 6 samples.

Results

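The miR-30 family was followed here in adult mouse cortex with and without Fmr1. The 9 rows described are the 5 guide (5p) products mmu-miR-30a-5p, mmu-miR-30b-5p, mmu-miR-30c-5p, mmu-miR-30d-5p and mmu-miR-30e-5p, the 3 passenger (3p) products mmu-miR-30a-3p, mmu-miR-30d-3p and mmu-miR-30e-3p, and mmu-miR-30f, which is annotated on the strand opposite the miR-30e hairpin. They were taken by name from a table of 1182 miRNAs, and all 9 passed the filter on low counts. The 6 small RNA libraries came from brain cortex of adult, age-matched male mice given no treatment, 3 with the genotype fmr1 KO and 3 with fmr1 WT from sibling animals. The sources used here give neither strain, exact age nor the knockout allele. The product of Fmr1, FMRP, binds messenger RNAs and represses their translation at synapses, and the comparison asks which small RNAs differ in cortex without it. The table holds no messenger RNA, so the genotype of a library could not be checked against Fmr1.

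MicroRNAs are cut from a hairpin precursor, and either arm of the hairpin can be loaded into an Argonaute protein. The loaded strand pairs with target messenger RNAs mainly through its seed, bases 2 to 8. The arm that is kept more often is called the guide and the other the passenger, whose level relative to the guide depends on strand choice and on how stable each product is. The miR-30 5p products are abundant in brain and many other tissues and share 1 seed, so their targets largely overlap.

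Hairpins of the family lie in 3 clusters. On GRCm38 with GENCODE M21, Mir30e (chromosome 4, 120772606 to 120772697, minus strand) and Mir30c-1 (120769534 to 120769622, minus strand) sit in an intron of Nfyc, which encodes a subunit of the NF-Y transcription factor, on the strand of that gene. Mir30f is annotated at the position of Mir30e on the plus strand. Mir30a (chromosome 1, 23272269 to 23272339, plus strand) lies outside annotated host genes, 19.4 kb from Mir30c-2 (23291701 to 23291784, plus strand), which overlaps an exon of the long noncoding gene Gm27028. Mir30b (chromosome 15, 68337415 to 68337510) and Mir30d (68341208 to 68341289) are on the minus strand of chromosome 15 and overlap exons of the noncoding transcripts Gm26621 and Gm20732.

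Mature sequences of 6 of the 9 members were matched by name in RefSeq (GRCm38.p6). Those of miR-30b-5p, miR-30d-5p and miR-30d-3p were not used here. The sequences that carry the comparison of guide, passenger and opposite-strand products are shown 5′ to 3′, with the seed in capitals.
miR-30a-5p: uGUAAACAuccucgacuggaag
miR-30e-5p: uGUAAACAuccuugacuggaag
miR-30c-5p: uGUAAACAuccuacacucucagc
miR-384-5p: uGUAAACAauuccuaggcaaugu
miR-30a-3p: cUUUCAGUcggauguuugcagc
miR-30e-3p: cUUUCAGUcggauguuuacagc
miR-30f: gUAAACAUccgacugaaagcuc
Counted from the 5′ end, miR-30a-5p and miR-30e-5p differ by 1 base (C13U), as do miR-30a-3p and miR-30e-3p (G18A). The sources used here do not say how reads that match both were assigned, so the split between the a and e products is less certain than their sum. The guides miR-30a-5p and miR-30e-5p share their first 12 bases with miR-30c-5p. An X-linked miRNA outside the family's name, miR-384-5p, has the same seed. It was the only other row of the table with a matched sequence to carry that seed.

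The row miR-30f looks like a guide of the family, shifted by a base. With the letters of the shared 5p seed in capitals, its first 7 bases are that seed, which in the guides starts at base 2.
miR-30f: GUAAACAuccgacugaaagcuc
reverse complement of miR-30e-3p: gcuGUAAACAuccgacugaaag
Its own bases 2 to 8 therefore read UAAACAU and match no other row with a RefSeq sequence. The first 10 bases equal bases 2 to 11 of miR-30a-5p, miR-30c-5p and miR-30e-5p. Its 22 bases (chromosome 4, 120772621 to 120772642, plus strand) lie over miR-30e-3p (120772618 to 120772639, minus strand) for 19 bases, and over none of miR-30e-5p.

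The libraries differed in ways that bear on these results. Summed miRNA counts ran from 11182888 to 15733876 per library. The labels call the replicates biological without tying each library to an animal. Each test therefore took the library as its unit, and its p-value refers to these libraries. The KO libraries were more variable, with a larger SD of log2 level in KO than in WT for 447 of 541 tested miRNAs and for all 9 members. KO replicate 3 stood apart in markers of other cell types, though it was not the only KO library with outlying marker sums. Its 6 choroid plexus and multiciliated markers summed to 2112 CPM. CPM are read counts relative to library size, on the per-megaread scale, after TMM scaling between libraries. The same sum was 1019 and 1034 CPM in the other KO libraries and 970.2 to 1045 CPM in WT. In KO replicate 3 the 3 oligodendrocyte markers summed to 558.2 CPM, against 704.7 to 880 CPM elsewhere. Most of that sum was miR-219a-2-3p, at 518 CPM against 674.7 to 855.4 CPM elsewhere. Another of the 3, miR-219a-5p, was at 7.5 CPM in KO replicate 3, inside the range of the other libraries (4.16 to 9.93 CPM). Summed epithelial or olfactory markers (5 miRNAs) were 15.7, 904.3 and 970.1 CPM in KO and 83.9 to 290 CPM in WT, with miR-141-3p at 0 in at least 1 library. Neuronal markers (5 miRNAs, among them miR-124-3p and miR-128-3p) summed to 282060, 424220 and 323140 CPM in KO and 310730 to 341300 CPM in WT. By this sum KO replicate 1 was the lowest library and KO replicate 2 the highest, but single neuronal markers gave other orders. The level of miR-124-3p was lowest in KO replicate 2 (1297 CPM) and highest in KO replicate 3 (2118 CPM). That of miR-128-3p was lowest in KO replicate 3 (90410 CPM) and highest in WT replicate 3 (111894 CPM). The neuronal sum was high in every library, though miR-137-3p had only 35.6 to 66.4 CPM. The part of these markers in the miR-30 values was not tested. In whole tissue, fewer cells of a type and less RNA per cell cannot be told apart.

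The guides miR-30d-5p and miR-30a-5p were among the most abundant miRNAs of cortex. Together the 5p members took 4.24% ± 0.208 of all reads in KO, beside 4.63% ± 0.263 in WT (SD, n = 3 libraries), and the 3p members 0.0838% ± 0.0227 and 0.0676% ± 0.00166. By mean CPM over 6 libraries, miR-30d-5p was the 8th and miR-30a-5p the 10th most abundant row of the table. The guides miR-30e-5p, miR-30c-5p and miR-30b-5p ranked 37, 39 and 173. Reads were not scaled by length, since each covers a product of 22 or 23 bases, but adaptor ligation favours some end sequences, so levels of different miRNAs compare only roughly.

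The order of levels was stable in steps. First came miR-30d-5p, from 14193 to 23254 CPM over the 6 libraries, and miR-30a-5p, from 15409 to 22854 CPM. These ranges overlap, and miR-30d-5p was the higher in 5 of 6 libraries. The next step held miR-30e-5p (1919 to 3314 CPM) and miR-30c-5p (1126 to 2770 CPM), again overlapping. The passengers miR-30e-3p (331.3 to 534 CPM) and miR-30a-3p (272.3 to 467.9 CPM) followed, with miR-30e-3p above miR-30a-3p in 6 of 6 libraries although their ranges overlap. Below them lay miR-30f (61.8 to 104.1 CPM) and the guide miR-30b-5p (48.8 to 118.7 CPM). The rarest member was the passenger miR-30d-3p, at 5.8 to 7.83 CPM, whose lowest count of 78 reads compares with at least 715 reads for every other member. Between these 5 steps no ranges overlapped, so the most abundant guide and its own passenger marked the top and bottom of the family.

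**Figure D1:**
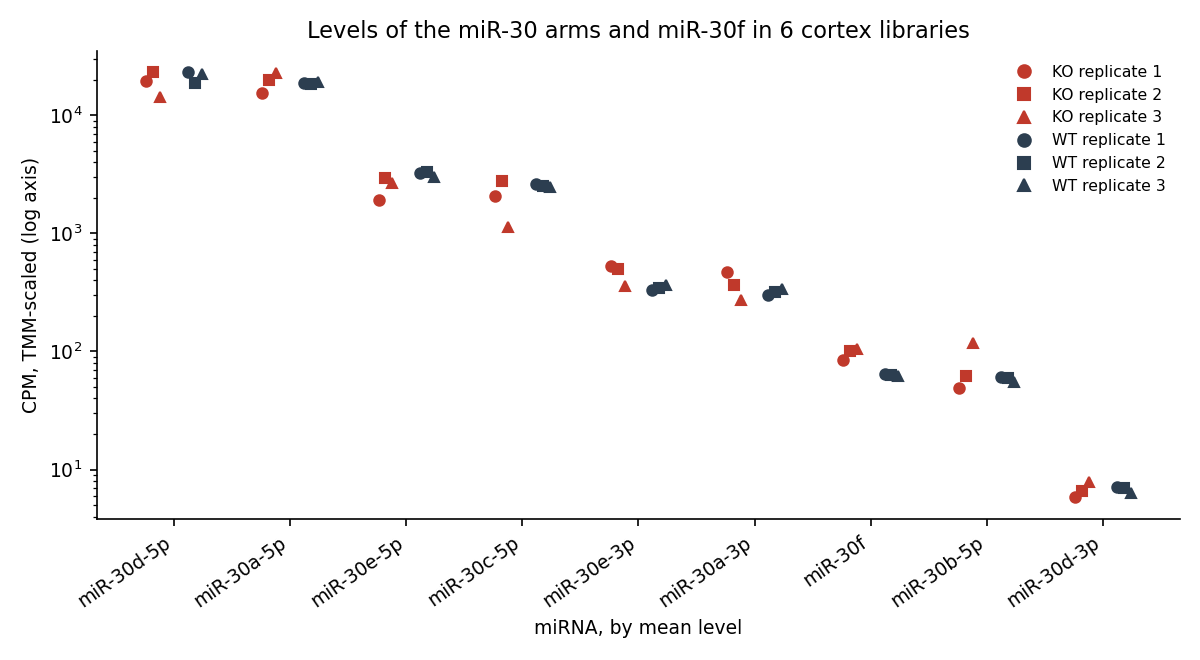
Level of each member in CPM (log axis) in the 6 libraries, KO in red and WT in dark blue, with a marker shape per replicate. The members fall into 5 steps from miR-30d-5p, at 14193 to 23254 CPM, to miR-30d-3p, at 5.8 to 7.83 CPM.

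No member passed the genotype test. The edgeR quasi-likelihood test called 0 of 541 miRNAs at an adjusted p below 0.05 (0%), and 0 of the 9 members; DESeq2 and limma-voom likewise called 0. Of the members, 5 had higher and 4 lower mean levels in KO, with a median log2 fold change of 0.05 beside 0.03 over all tested miRNAs. At an unadjusted p below 0.05 there was 1 member, miR-30f, against a background of 35 miRNAs (6.47%). Groups that did not overlap were found for 1 member with KO above WT (miR-30f, background 5.18%) and 1 with KO below WT (miR-30e-5p, background 10.5%). With KO replicate 3 left out, 18 of 560 miRNAs were called (3.21%), among them miR-30e-3p and miR-30f. Each of the other 5 fits with a library left out called 0.

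**Figure D2:**
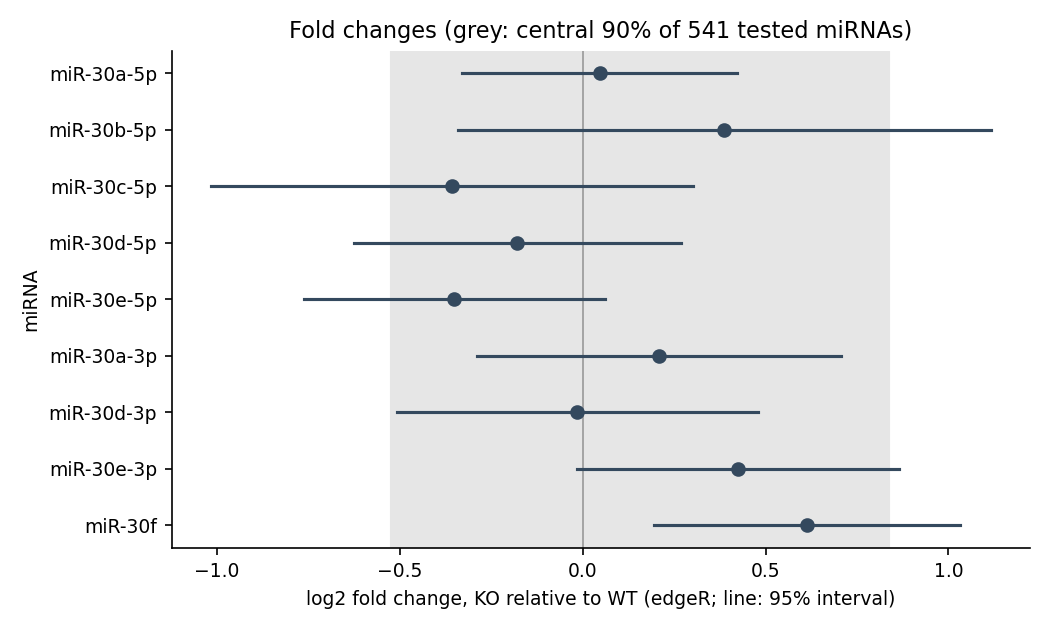
Fold change of each member in KO relative to WT on the log2 scale (points, edgeR) with its 95% interval (lines). The grey band spans the central 90% of the 541 tested miRNAs, from -0.52 to 0.84, and all 9 points fall inside it; the interval of miR-30f, from 0.19 to 1.03, is the only one that leaves out 0.

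Among the guides, miR-30d-5p and miR-30a-5p made up most of the miR-30 5p reads, at 88.2% to 90.4% in KO and 86.3% to 88.2% in WT. These shares were higher in every KO library than in any WT library, but KO replicate 2 and WT replicate 3 differed by little. Of the same reads miR-30e-5p took 4.95% to 6.53% in KO and 6.44% to 7.71% in WT, which overlap. The level of miR-30d-5p was 19373, 23196 and 14193 CPM in the KO group, against 23254, 18697 and 22312 CPM in WT. KO replicate 3 was the lowest of the 6, and the groups overlapped, and the log2 fold change was -0.18 (SE 0.20 with a 95% interval of -0.63 to 0.27, edgeR adjusted p = 0.823). For miR-30a-5p the levels were 15409, 19769 and 22854 CPM in KO, beside 18651, 18371 and 19190 CPM in WT. Here KO replicate 3 was the highest, and the KO values lay on both sides of a narrow WT range (log2 fold change 0.05, SE 0.16, adjusted p = 0.925). KO replicate 3 was therefore the only library with clearly more miR-30a-5p than miR-30d-5p, at a ratio of 1.61, against 0.795 to 0.983 in the other 5. Both fold changes turned sign without it, to 0.0093 for miR-30d-5p and -0.07 for miR-30a-5p. The sequence of miR-30d-5p was not used here, so whether reads can match both guides was not checked.

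Counts of miR-30e-5p, the guide from the Nfyc intron, were lower in every KO library than in any WT library. Its level was 1919, 2932 and 2674 CPM in the KO group, against 3252, 3314 and 3032 CPM in WT. The gap between the groups was small, since KO replicate 2 lay just below the lowest WT library. The log2 fold change was -0.35 (SE 0.18, 95% interval -0.76 to 0.06, edgeR adjusted p = 0.749), and it shrank to -0.18 without KO replicate 1, the lowest library.

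The fold changes of the remaining guides, miR-30c-5p and miR-30b-5p, moved with single libraries. Levels of miR-30c-5p, which both Mir30c-1 and Mir30c-2 can give, were 2063, 2770 and 1126 CPM in KO, beside 2611, 2534 and 2491 CPM in WT. KO replicate 3 had less than any other library. KO replicate 2 had the most after TMM scaling, in which its factor was the smallest (0.8265). The log2 fold change was -0.36 (SE 0.29, edgeR adjusted p = 0.791). It was -0.06 without KO replicate 3 and -0.73 without KO replicate 2 (adjusted p = 0.498). Levels of miR-30b-5p were 48.8, 61.5 and 118.7 CPM in the KO group, against 61, 59 and 55 CPM in WT, so that KO replicate 3 was the one high value. Its log2 fold change was 0.39 (SE 0.32, adjusted p = 0.791), and -0.06 without KO replicate 3.

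In KO replicate 3, guides from neighbouring hairpins deviated from WT by unequal amounts. Relative to the WT mean, miR-30b-5p stood at 1.02 and miR-30d-5p at -0.59 on the log2 scale, although their hairpins are 3.7 kb apart on the same strand. The ratio of miR-30d-5p to miR-30b-5p reads was 119.6 there and 316.6 to 405.8 in the other 5 libraries. Both miR-30c-5p, which also comes from chromosome 1, and miR-30e-5p, from the neighbouring hairpin in Nfyc, were below the WT mean, at -1.18 and -0.26. The ratio of miR-30c-5p to miR-30e-5p was 0.421 in KO replicate 3 and 0.765 to 1.07 elsewhere. Whether the choroid plexus marker sum and the miR-219a-2-3p level that set this library apart have a part in these values was not tested.

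**Figure D3:**
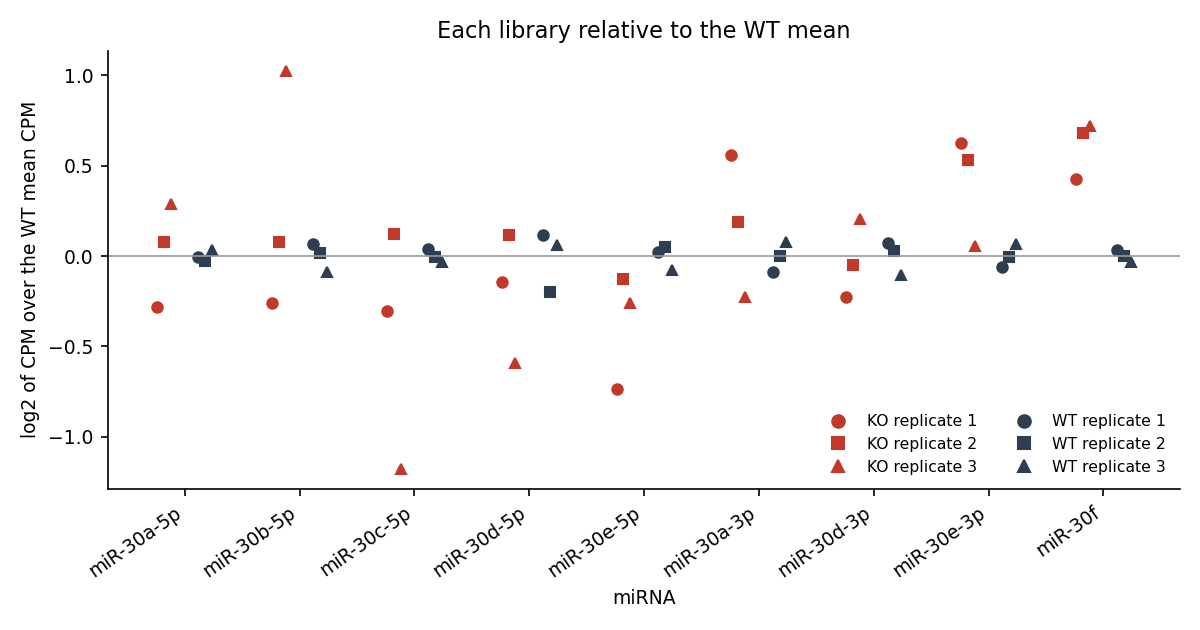
Level of each member in each library relative to the mean of the 3 WT libraries, on the log2 scale (0 is the WT mean), with KO in red and WT in dark blue. KO replicate 3 (triangles) reaches 1.02 for miR-30b-5p and -1.18 for miR-30c-5p, and the 3 KO libraries lie together on one side for miR-30f and miR-30e-5p.

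Summed over the 5 guides, the level was 38813, 48728 and 40966 CPM in KO, beside 47829, 42974 and 47080 CPM in WT. KO replicate 1, in which all 5 guides were below the WT mean, had the lowest sum and KO replicate 2 the highest, so the groups overlapped. The place of KO replicate 2 depends on the scaling, since it had the smallest TMM factor (0.8265). As a share of all reads, with no TMM factor, its guides were the lowest, at 4.03%. The other KO libraries had 4.24% and 4.44%, and WT 4.41% to 4.92%, which also overlap. The difference of mean log2 summed CPM was -0.11 (exact permutation p = 0.4, two-sided, and 0.533 when adjusted over the 4 values tested this way). It was -0.03 without KO replicate 1 and -0.25 without KO replicate 2. With 3 libraries a genotype, this test can give no p below 0.1.

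Of the 3 passengers, 2 had higher and 1 lower mean levels in KO, and 0 passed the test with all 6 libraries. For miR-30e-3p the level was 534, 500.6 and 359.7 CPM in the KO group, against 331.3, 344.6 and 362.5 CPM in WT. KO replicates 1 and 2 lay well above all WT libraries and KO replicate 3 within their range. The log2 fold change was 0.43 (SE 0.19, 95% interval -0.01 to 0.87, edgeR adjusted p = 0.747). Without KO replicate 3 it was 0.60 and passed the threshold (adjusted p = 0.0211), and over all alternatives the adjusted p ranged from 0.0211 to 0.999.

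Levels of miR-30a-3p were 467.9, 363.4 and 272.3 CPM in KO, beside 299.8, 318.7 and 336.6 CPM in WT. Values in KO ran from below to above the whole WT group (log2 fold change 0.21, SE 0.22, edgeR adjusted p = 0.818). Without KO replicate 3 the fold change was 0.40 (adjusted p = 0.105), and without KO replicate 1 it was 0.0096. The rare miR-30d-3p had 5.8, 6.56 and 7.83 CPM in the KO group, against 7.14, 6.92 and 6.31 CPM in WT. The log2 fold change of -0.01 (SE 0.22, adjusted p = 0.993) changed sign with the scaling of the libraries. Summed, the 3 passengers had 1008, 870.6 and 639.8 CPM in KO, beside 638.3, 670.2 and 705.4 CPM in WT, a difference of 0.30 in mean log2 (exact two-sided permutation p = 0.3, adjusted p = 0.533). That difference was 0.17 without KO replicate 1 and 0.50 without KO replicate 3. As a share of all reads, with no TMM factor, the 3 KO libraries (0.0694% to 0.11%) lay above the WT libraries (0.0657% to 0.0688%), so that this separation depends on the scaling. Between the passengers, reads of miR-30a-3p per read of miR-30e-3p were 0.876, 0.726 and 0.757 in KO and 0.905, 0.925 and 0.928 in WT, a ratio below WT in all 3 KO libraries that was not tested further.

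The strand of the reads counted for miR-30f cannot be read from the counts. Of the family, the row miR-30f had the largest difference relative to its error. Its level was 85, 101.2 and 104.1 CPM in the KO group, against 64.8, 63.2 and 61.8 CPM in WT. All KO libraries lay above all WT libraries, by more than the whole WT range, and the lowest was KO replicate 1. The log2 fold change was 0.61 (SE 0.18, 95% interval 0.19 to 1.03, unadjusted p = 0.00932), and after adjustment over 541 miRNAs the edgeR p was 0.694. The difference did not rest on KO replicate 3: without that library the log2 fold change was 0.58 (edgeR adjusted p = 0.0424). The markers of microglia and leukocytes (6 miRNAs, none at 0) also separated the genotypes, but only in their sum. They summed to 195.4 to 219.2 CPM in KO and 170.7 to 180.9 CPM in WT. Taken singly, the 5 tested ones overlapped between genotypes. All 5 had higher means in KO, as did 52.5% of all tested miRNAs. The same held for every tested choroid plexus, epithelial or olfactory, endothelial and mural, hindbrain and muscle marker. The part of the microglia and leukocyte markers in the miR-30f difference was not tested. Over 13 alternatives the log2 fold change of miR-30f stayed between 0.54 and 0.71, and the adjusted p between 0.0424 and 0.978.

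Arms of a hairpin come from the same precursor, so their ratio within a library does not depend on scaling between libraries. Over 144 miRNA names with both arms tested, limma called no difference in the log2 ratio of 3p to 5p reads (0 of 144, 0%), and 16 had an unadjusted p below 0.05 (11.1%). Of the hairpins of the family, Mir30e came nearest. Its 3p arm took 21.8%, 14.6% and 11.9% of the reads of both arms in KO and 9.25%, 9.42% and 10.7% in WT. All KO libraries lay above all WT libraries, and the exact (Clopper-Pearson) 95% intervals of these shares, which cover counting error only, were at most as wide as 21.3% to 22.2%. The log2 ratio was higher in KO by 0.78 (SE 0.32, 95% interval 0.02 to 1.53, unadjusted p = 0.0447, limma adjusted p = 0.427), beside a median of -0.01 over all 144 names. Groups did not overlap with KO above WT for 12 of 144 names (8.33%), and with KO below WT for another 12 (8.33%). Without KO replicate 1 the difference was 0.49 (adjusted p = 0.456), and without KO replicate 3 it was 1.01 (adjusted p = 0.208).

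In the other hairpins the genotypes overlapped and the KO libraries varied most. For Mir30a the 3p share was 2.95%, 1.8% and 1.18% in KO and 1.58%, 1.71% and 1.72% in WT (log2 difference 0.15, SE 0.36, limma adjusted p = 0.914). Mir30b, whose guide is the rarest and whose passenger miR-30b-3p is not far below it, had shares of 28.5%, 20.6% and 7.75% in KO and 18.3%, 20.2% and 19.3% in WT (log2 difference -0.21, SE 0.55, adjusted p = 0.914). KO replicate 1 had the highest and KO replicate 3 the lowest KO share in Mir30a, Mir30b and Mir30e alike. Mir30d was the most one-sided of the 4, with 1812 to 3536 guide reads for each passenger read. Its 3p share was 0.0299%, 0.0283% and 0.0551% in KO and 0.0307%, 0.037% and 0.0283% in WT, and here KO replicate 3 was the highest. The log2 difference was 0.18 (SE 0.33, limma adjusted p = 0.889).

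**Figure D4:**
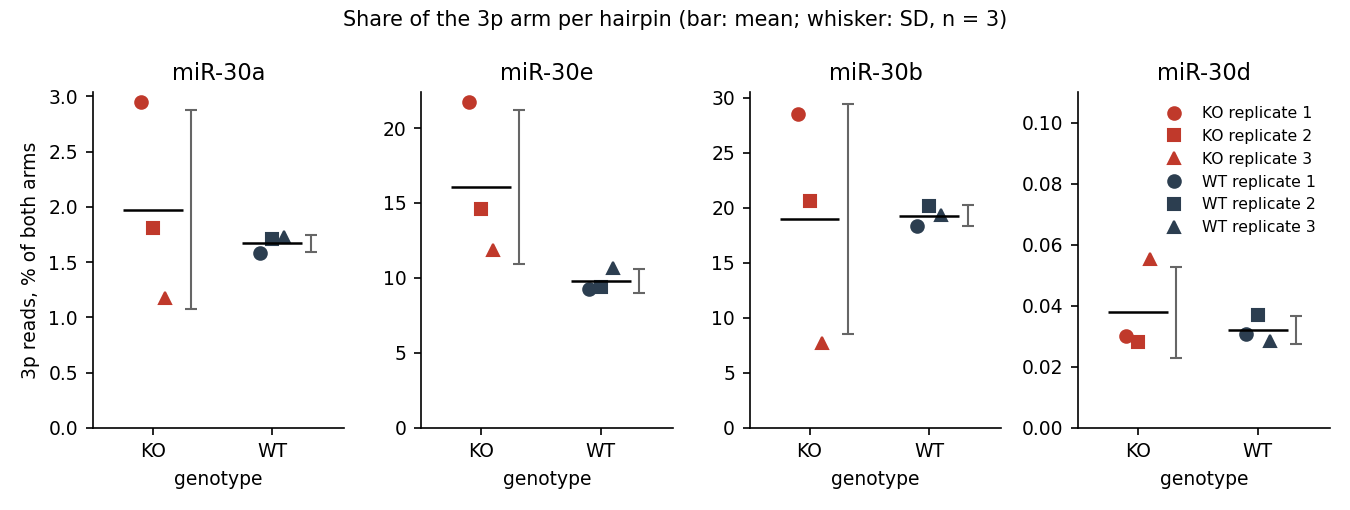
Reads of the 3p arm as a percentage of the reads of both arms for 4 hairpins (each with its own linear axis from 0), by genotype; points are libraries, bars means and whiskers SD (n = 3). The KO and WT libraries separate for miR-30e, at 11.9% to 21.8% against 9.25% to 10.7%, and overlap for miR-30a, miR-30b and miR-30d.

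Set against the guide of the hairpin it lies opposite, miR-30f separated the genotypes by a larger fold than on its own. It had 4.43, 3.45 and 3.89 reads per 100 reads of miR-30e-5p in KO and 1.99, 1.91 and 2.04 in WT. Every KO library lay far above the WT libraries, which hardly differed among themselves. The ratio was 1.97-fold higher in KO (log2 difference 0.98), and both terms went into it, with miR-30f higher and miR-30e-5p lower. The exact two-sided permutation p was 0.1, the smallest this design can give, and 0.4 after adjustment over 4 values. Since miR-30f alone was above WT and miR-30e-5p alone below WT in every KO library, their ratio had to separate the genotypes. This p was therefore fixed by those separations and adds nothing to them. Leaving out any 1 library gave log2 differences from 0.89 to 1.07.

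Set against miR-30e-3p, whose bases it overlaps, miR-30f showed no such separation. It had 15.9, 20.2 and 28.9 reads per 100 reads of miR-30e-3p in KO and 19.5, 18.4 and 17.1 in WT. KO values lay on both sides of WT (log2 difference 0.20, exact two-sided permutation p = 0.6, adjusted p = 0.6), and without KO replicate 3 the difference was -0.03. In KO replicates 1 and 2, then, miR-30f and miR-30e-3p were both above WT by similar amounts, at 0.43 and 0.63 and at 0.68 and 0.53 on the log2 scale. In KO replicate 3 they parted, at 0.72 for miR-30f and 0.06 for miR-30e-3p.

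Which strand the miR-30f reads came from cannot be read from the counts. The table holds 19 pairs of rows whose mature sequences overlap by at least 10 bases on opposite strands, counting pairs with at least 200 reads in the larger row. In 9 of them the counts of both rows agreed within 3% in every library, such as miR-3074-5p with 99.9% of the reads of miR-24-3p. In others the smaller row held few reads, such as miR-9b-5p with 2.29% to 3.03% of the reads of miR-9-3p. Pairs that overlap by 19 bases, as miR-30f does, were found among both kinds, since miR-3071-5p had 98.8% to 99.6% of the reads of miR-136-3p. At 15.9% to 28.9% of miR-30e-3p, miR-30f lay between these kinds, near miR-129b-5p (23.6% to 31.1% of miR-129-2-3p) and miR-136-5p (18.6% to 31.2% of miR-3071-3p). How many of its reads were also counted for miR-30e-3p was not tested.

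**Figure D5:**
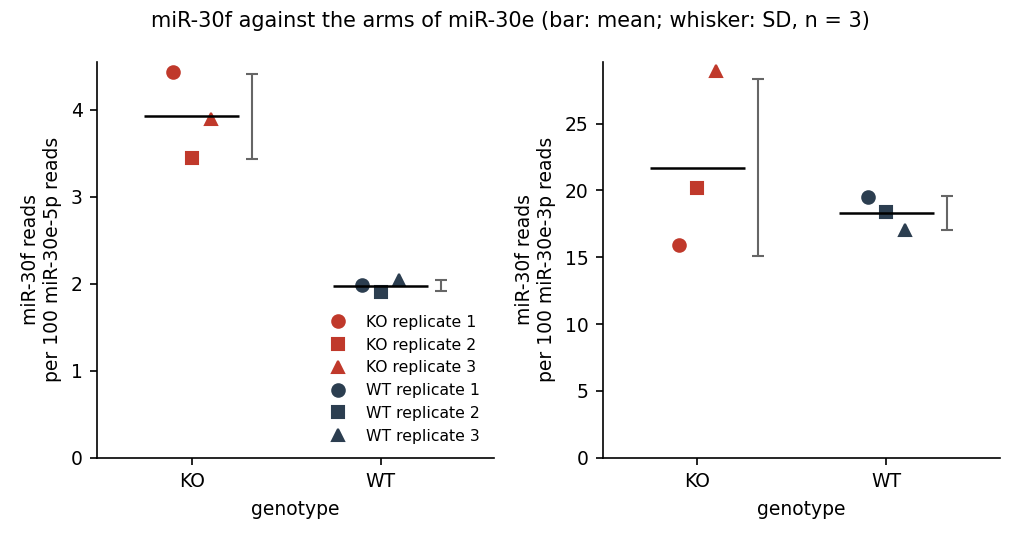
Reads of miR-30f per 100 reads of miR-30e-5p (left) and of miR-30e-3p (right), each on a linear axis from 0, by genotype; points are libraries, bars means and whiskers SD (n = 3). Against the 5p arm the KO libraries (3.45 to 4.43) separate from WT (1.91 to 2.04), and against the 3p arm they do not.

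Of 4 related rows, the passengers miR-30b-3p, miR-30c-1-3p and miR-30c-2-3p and the seed-sharing miR-384-5p, 4 had higher mean levels in KO and 0 passed the edgeR test. Of all tested miRNAs, 52.5% were higher in KO. The passengers had log2 fold changes of 0.12 (SE 0.27), 0.06 (SE 0.22) and 0.12 (SE 0.26), each of which turned negative without KO replicate 1. At 57.8 to 107.8 CPM miR-30c-2-3p was 7.86 to 10.5 times as abundant as miR-30c-1-3p in every library, a ratio that did not separate the genotypes. The 2 passengers differ at 3 bases (G9A, U12C and C22U, from miR-30c-1-3p to miR-30c-2-3p), so they are the rows that tell the 2 miR-30c hairpins apart, since both give the same guide. Together they made up 5.41%, 2.29% and 5.97% of all miR-30c reads in KO and 2.99%, 2.88% and 3.12% in WT, with KO on both sides of WT; in KO replicate 3 this went with the low level of miR-30c-5p. Levels of miR-384-5p, which shares the guide seed, were 59.9, 67.6 and 115 CPM in KO, beside 59.6, 52.6 and 54.5 CPM in WT. Its groups just missed overlapping, with KO above WT (background 5.18%), and KO replicate 3 was by far the highest. Its log2 fold change was 0.54 (SE 0.27, edgeR adjusted p = 0.749), or 0.22 without that library. In all 6 libraries it stayed close to miR-30b-5p, at 0.892 to 1.23 reads per read of miR-30b-5p.

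Some miRNAs outside the family followed its members across the libraries. Likeness was measured as the root mean square difference of log2 CPM, each miRNA centred on its own mean over the 6 libraries, among 528 tested non-members. Nearest to miR-30f were miR-377-3p (0.09), miR-425-5p (0.11) and miR-136-5p (0.12), against a median of 0.47 over all compared. Of these, miR-136-5p is itself a row that overlaps another, miR-3071-3p, on the opposite strand. Nearest to miR-30d-5p, the most abundant guide, were miR-127-3p (0.04), miR-100-5p (0.10) and miR-99a-5p (0.12), against a median of 0.38. The nearest, miR-127-3p, had 8463 CPM in KO replicate 3 and 11262 to 14639 CPM in the other libraries. These miRNAs were chosen for following the member, so what they share with it across the 6 libraries is a description.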

How the data were processed

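Per the labels' protocols, total RNA of whole cortices was ligated to adaptors at both ends, copied to cDNA, given a few PCR cycles, sized by gel and read from a single end. The submitters' processing notes name Bowtie, DESeq2 and mm10. The treatment of mismatches, multiply matching reads and strand, and tool versions, were not given in the sources used here. Deposited read counts per mature miRNA are raw, per the file headers and values. The deposited TPM equals count over column total (largest deviation 4.9e-10) and was used only for this check. Of the value columns, 0 lacked a sample.

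Genotype came from the labels, and replicate numbers follow accession order and only name a library. Counts were fitted in R 4.3.3 with edgeR 4.0.16 (filterByExpr, minimum count 10, 541 of 1182 miRNAs kept, TMM factors 0.8265 to 1.092, robust quasi-likelihood test), adjusted by Benjamini-Hochberg over all 541, threshold 0.05. Arm ratios, log2 of (3p + 0.5)/(5p + 0.5), were fitted with limma 3.58.1 over 144 names. Single values per library were tested by exact permutation with scipy 1.17.1. DESeq2 1.42.0, limma-voom, other scalings and filters and left-out libraries were alternatives. The procedure was tested on simulated data with equal spread in both genotypes and larger changes than those of the members. That test therefore does not show how the fits perform on these libraries. The miRNAs named were all members, the other miR-30 passengers, rows with a member's seed, and the 3 nearest to miR-30f and to the most abundant guide. Other names (the opposite-strand pairs given as examples and the cell type markers given singly) were chosen after their values were seen. Members and lists were chosen with earlier results of these data known. The protocols name no molecular identifiers, so intervals of shares cover counting error only.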

Additional observations from a re-analysis of the deposited data

How the results depend on the processing

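Of 241 values of single miRNAs, ratios and sums under alternatives, 221 kept their direction and their side of the threshold, 18 changed sign, and 2, miR-30e-3p (0.60) and miR-30f (0.58) without KO replicate 3, came past the threshold. The count of called miRNAs was 0 under DESeq2 (40 at an unadjusted p below 0.05), limma-voom (34), RLE, upper-quartile and reduced TMM scaling, with all rows kept, and with each near-identical pair taken as 1, and from 0 to 18 with a library left out, the 18 without KO replicate 3. Called arm ratios were 0 under all 9 alternatives.

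Log2 fold changes with a library left out ranged from -0.0720 to 0.20 for miR-30a-5p, -0.0631 to 0.64 for miR-30b-5p, -0.73 to -0.06 for miR-30c-5p, -0.40 to 0.0093 for miR-30d-5p, -0.12 to 0.0969 for miR-30d-3p, -0.0909 to 0.36 for miR-30b-3p, -0.10 to 0.14 for miR-30c-1-3p and -0.20 to 0.24 for miR-30c-2-3p. Arm ratio differences ranged from -0.20 to 0.48 for miR-30a, -0.13 to 0.35 for miR-30d and -0.69 to 0.43 for miR-30b, and the log2 ratio of miR-30f to miR-30e-3p from -0.0278 to 0.40. Differences in the summed level ranged from -0.25 to -0.03 for the guides and 0.17 to 0.50 for the passengers. The fold change of miR-30d-3p also turned positive with RLE factors (0.0200), with TMM without the 5 most abundant miRNAs (0.0200), without the count filter (0.0052), with near-identical pairs counted once (0.0129) and with DESeq2 (0.0040). The cause of these changes was not tested. No paired analysis was possible because the labels give no litter, so any kinship between KO and WT animals was left out of the tests. At 78 to 109 reads per library, counting error limits miR-30d-3p most.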
